A study of Homo sapiens with 4 samples.

Results

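The genes described here are those of the NRF2 antioxidant and glutathione system: the transcription factor NRF2 (gene NFE2L2) with its regulators, the enzymes that make, use and recycle glutathione and thioredoxin, and the enzymes that supply them with NADPH. They were taken from a fixed list of 41 genes, which was chosen with earlier results of these data known. Each gene was read from the probe set that the array annotation assigns to it alone and that had the highest mean level over both populations. Of the 41, 39 had such a probe set, among 19775 genes on the array, while PRDX5 and FTH1 had none and were not analysed here.

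The cells were PLC8024, a human hepatocellular carcinoma line, which a flow cytometry sort had split by CD133 into a positive and a negative population. CD133 is a membrane protein that serves as a marker of tumour-initiating cells in liver cancer, and no other treatment is given in the labels. Each of the 2 populations has 1 column of RMA values on the log2 scale and 1 of linear MAS5 intensities. These are 2 processings and not replicates, so no difference below has an error between cultures or sorts, and no test was possible.

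Under basal conditions KEAP1 binds NRF2 and hands it to a CUL3 ubiquitin ligase for destruction. Oxidants and electrophiles disable KEAP1, and NRF2 then pairs with a small MAF protein on antioxidant response elements near its target genes. The targets restore glutathione and thioredoxin, remove peroxides and quinones, and raise the supply of NADPH. In liver this system handles reactive drug metabolites, and in part of hepatocellular carcinomas it is permanently switched on by mutation.

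PROM1, which encodes CD133, had RMA levels of 10.35 in CD133+ against 6.04 in CD133-, so its transcript differed in the direction of the labels. A gene was taken as above the floor when its brighter population reached the median RMA value of that column, which was 5.16 in CD133+ and 5.14 in CD133-. This held for 13116 genes and for 38 of the 39 genes of the system. Of the 13116 RMA differences, 95% lay between -0.78 and 0.96. As a measure of technical spread, the gap between the differences of a pair of probe sets of the same gene had an SD of 0.35 in RMA and 0.79 in MAS5 over 6170 genes. The liver markers on the array were present in both populations: 10 of 10 were above the floor, with summed MAS5 intensities of 143668 in CD133+ and 164678 in CD133-. ALB, serum albumin, was the marker that differed most, at RMA levels of 7.70 in CD133+ against 11.12 in CD133-. AFP and APOA1 differed by -2.78 and -1.80, while TTR and SERPINA1 were on the other side, by 0.28 and 0.06. Of 4 epithelial genes EPCAM alone was under the floor, at 3.43 in both populations. CDH1 had RMA levels of 9.43 in CD133+ against 6.625 in CD133-, while KRT8 and KRT18 differed by -0.28 and -0.33. Among markers of other cells, 3 of 5 leukocyte, 1 of 4 endothelial, 3 of 6 fibroblast and 2 of 2 erythroid genes were above the floor. Their summed MAS5 intensities were 10670 against 4193 for leukocyte, 300.0 against 951.3 for endothelial, 820.6 against 541.0 for fibroblast and 210.1 against 173.7 for erythroid genes, in CD133+ against CD133-. The leukocyte sum was mostly LYZ, at RMA levels of 11.14 in CD133+ against 9.42 in CD133-, while the pan-leukocyte gene PTPRC was under the floor at 3.01 and 2.94. The endothelial sum was mostly PECAM1, at RMA levels of 6.11 in CD133+ against 7.87 in CD133-. The part of these markers in the differences below was not tested.

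The promoters of GPX2, a glutathione peroxidase, and SRXN1, sulfiredoxin, are shown because both genes were among the lowest of the system in CD133+ and only that of GPX2 holds a match to the core of the antioxidant response element. The sequences are those of RefSeq on GRCh38.p14, chr14:64942746-64942995 for GPX2 and chr20:653201-653450 for SRXN1, both on the minus strand. Each gives the 250 bases before the annotated start. The capitals mark the match, which reads TGACTTAGC on the opposite strand.

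GPX2 promoter: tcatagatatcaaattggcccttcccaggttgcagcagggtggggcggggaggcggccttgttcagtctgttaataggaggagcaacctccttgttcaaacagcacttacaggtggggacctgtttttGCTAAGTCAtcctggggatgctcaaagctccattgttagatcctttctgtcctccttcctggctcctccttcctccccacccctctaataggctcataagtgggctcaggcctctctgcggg

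SRXN1 promoter: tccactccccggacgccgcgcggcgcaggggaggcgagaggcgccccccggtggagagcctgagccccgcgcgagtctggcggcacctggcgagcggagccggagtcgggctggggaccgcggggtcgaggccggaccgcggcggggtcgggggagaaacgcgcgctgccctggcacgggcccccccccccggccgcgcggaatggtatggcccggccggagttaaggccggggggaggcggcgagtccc

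The core was searched as TGACNNNGC on both strands, in windows from 250 bases before to 50 bases after each annotated start. A promoter of this length was held for 32 of the 41 genes, and 7 of these had a match, or 21.9%, beside 13.6% of all 27305 promoters. SLC7A11, GSR and HMOX1, described below, are among those not searched. The matches are given with 5 bases on each side and the core in capitals, read in the direction of the motif, so that genes with and without a lower level in CD133+ can be set side by side. Some genes have more than 1 match, and the first line is the match in the GPX2 promoter above.

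GPX2: caggaTGACTTAGCaaaaa

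GCLM: gacaaTGACTAAGCagaaa

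TXNRD1: ggctaTGACTTCGCtgttg

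TXNRD1: ggaacTGACGGAGCcgaag

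PGD: ctagaTGACATTGCcccgg

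ME1: tgccaTGACTCAGCgcttc

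ME1: tggggTGACGGTGCtgact

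GSTA4: accgcTGACCTGGCgcttt

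GSTO1: agggaTGACTGAGCattta

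GSTO1: tgcttTGACACAGCccctt

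The match of GCLM, the modifier subunit of the enzyme that starts glutathione synthesis, lies 34 bases before its start, and that of GPX2 lies 122 bases before. The first of the ME1 matches, 137 bases before the start, also contains the AP-1 site TGANTCA, which was searched on both strands and was held by 7.76% of all promoters. Of the 7 genes with a match, GPX2 and GCLM were at least 1.5-fold lower in CD133+ and the other 5 were not. A match was thus held by 2 of the 6 lower genes searched, or 33.3%. Of the 26 other genes searched, 5 held one, or 19.2%. These include PRDX5, which was not analysed, and GSTA1, which was under the floor. The groups are too small for these shares to tell them apart. SRXN1, with no match in its window, was at least 2-fold lower. A match describes the letters in this window and no more.

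Across the system, 3 genes were at least 2-fold lower in CD133+ in RMA and in MAS5, and none was at least 2-fold higher. The 3 were GPX2, SLC7A11 and SRXN1, which is 7.89% of the 38 above the floor, beside 1.09% of all 13116 genes for the lower direction and 2.25% for the higher one. With a limit of 1.5-fold in both processings, 9 genes were lower, or 23.7%, beside 4.17% of all genes. The further 6 were HMOX1, NQO1, GCLM, GSR, SQSTM1 and TKT. GSTK1 was the 1 gene at least 1.5-fold higher, or 2.63%, beside 5.32% of all genes.

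The majority of the system stayed near 0. The median RMA difference of the 38 genes was -0.12, beside 0.00 over all genes, and their median MAS5 log2 ratio was 0.0044, beside 0.0049. In both processings 18 of the 38 were below 0, or 47.4%, beside 39.1% of all genes, and 12 were above 0, or 31.6%, beside 38.8%. The lower genes were therefore a subset, and a median over the list does not describe them.

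**Figure D1:**
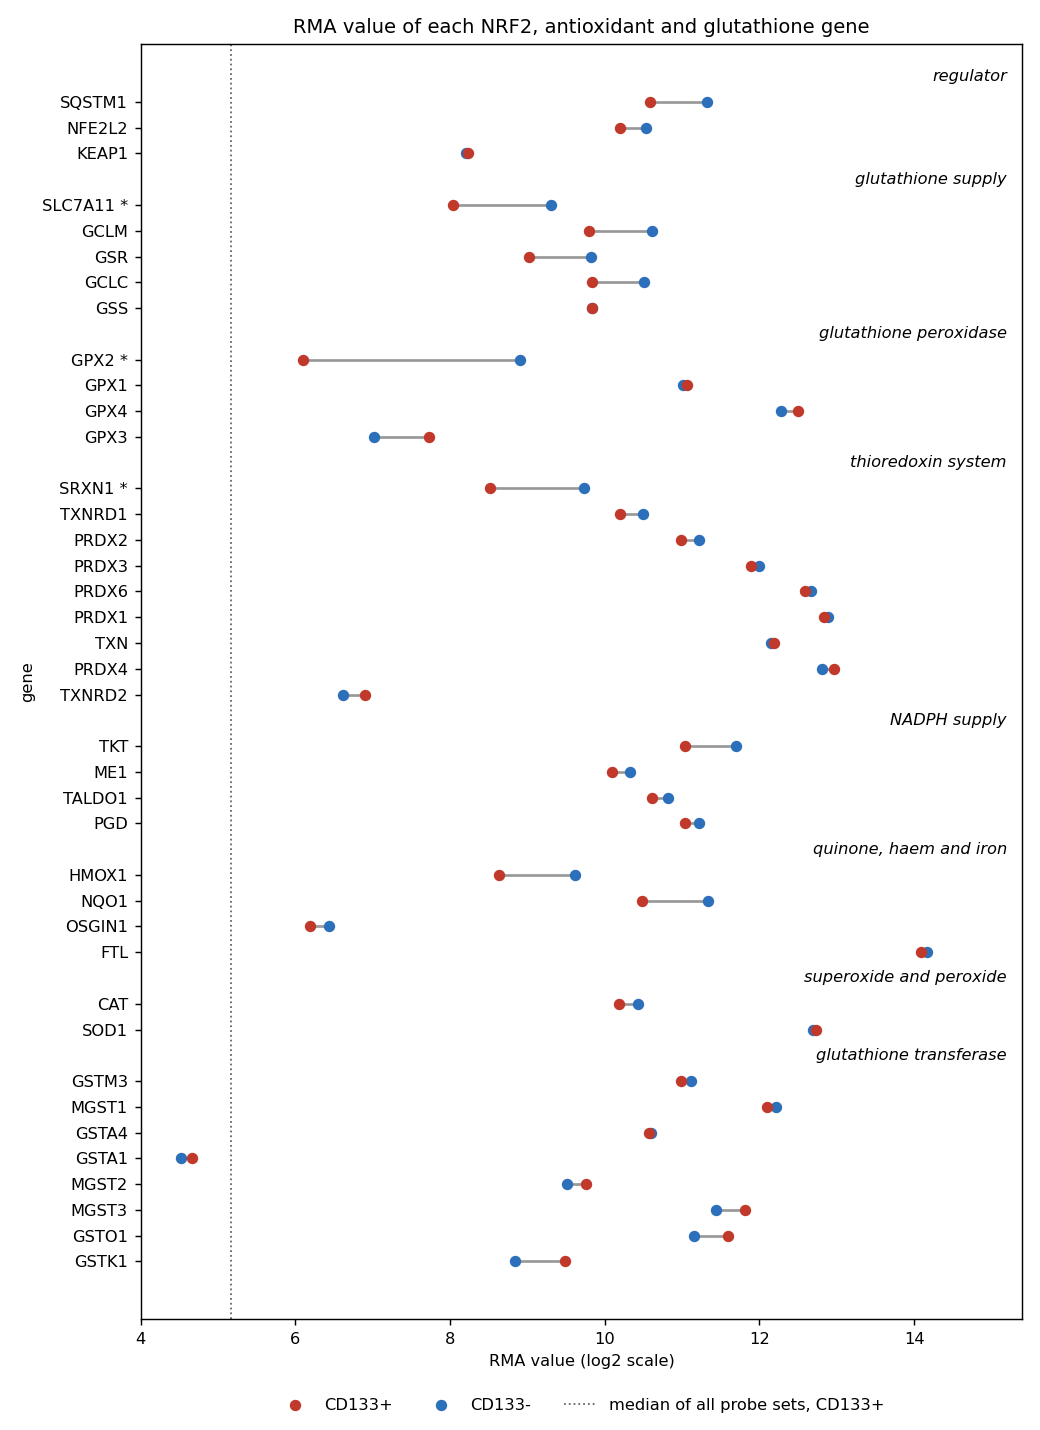
RMA values (log2 scale) of the 39 genes by role, with a red point for CD133+ and a blue point for CD133-, 1 array value each and no error bar. An asterisk marks the 3 genes at least 2-fold lower in both processings. GPX2 has the widest gap, at 6.10 in CD133+ and 8.90 in CD133-, while the points of GSS, TXN, PRDX1 and SOD1 nearly coincide.

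Among the regulators, NFE2L2 itself was below 0 but short of 1.5-fold in the probe set read here. It had RMA levels of 10.20 in CD133+ against 10.53 in CD133-, a difference of -0.34, and its MAS5 log2 ratio was -0.13. Its second probe set above the floor was dimmer, at 5.88 in CD133+ and 6.41 in CD133-. That probe set differed by -0.52 in RMA and -1.02 in MAS5, so the size for NFE2L2 is not settled. KEAP1, the adaptor that targets NRF2 for destruction, had 8.23 in CD133+ and 8.20 in CD133-. SQSTM1, which encodes the autophagy receptor p62 that sequesters KEAP1 and is itself an NRF2 target, was 1.67-fold lower in RMA and 1.73-fold in MAS5. Its RMA levels were 10.58 in CD133+ and 11.33 in CD133-, and all 4 of its probe sets above the floor were below 0, from -0.74 to -0.15.

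In glutathione supply 3 of 5 genes, SLC7A11, GCLM and GSR, were at least 1.5-fold lower, or 60%, beside 4.17% of all genes, and SLC7A11 alone was with the median over a gene's probe sets. SLC7A11, which imports cystine, the source of the cysteine in glutathione, had RMA levels of 8.04 in CD133+ against 9.30 in CD133-. Its MAS5 intensities were 1604 in CD133+ and 3369 in CD133-, which is 2.39-fold lower in RMA and 2.10-fold in MAS5. All 3 of its probe sets were lower in CD133+, between -1.26 and -1.06 in RMA, a narrow range beside the spread of 0.35 between probe sets. SLC3A2, the heavy chain that carries the same transporter to the membrane, had a difference of -0.16 in RMA and -0.11 in MAS5.

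Glutathione is made in consecutive steps. The first and limiting step is that of glutamate-cysteine ligase, whose modifier subunit GCLM had RMA levels of 9.80 in CD133+ against 10.61 in CD133-, or 1.76-fold lower. Its catalytic subunit GCLC had 9.83 in CD133+ and 10.50 in CD133-, which is 1.60-fold lower in RMA and 1.46-fold in MAS5, just short of 1.5-fold in both. Every probe set of both subunits was below 0, from -0.81 to -0.41 for GCLM and from -0.72 to -0.23 for GCLC. GSS, glutathione synthetase, which completes the molecule, had 9.84 in both populations. The ligase subunits were thus lower in CD133+ and the synthetase was not, with differences of -0.81, -0.67 and 0.00.

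GSR, glutathione reductase, which returns oxidised glutathione to its reduced form, was 1.74-fold lower in RMA and 1.70-fold in MAS5. Its RMA levels were 9.02 in CD133+ and 9.82 in CD133-, and its other probe set had a difference of -0.40. With the median over a gene's probe sets, GCLM and GSR had RMA differences of -0.57 and -0.60 and each missed 1.5-fold in at least 1 processing.

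The glutathione peroxidases, which reduce peroxides with glutathione, went both ways. GPX2, the form best known from the gut epithelium, had RMA levels of 6.10 in CD133+ against 8.90 in CD133-. Its MAS5 intensities were 246.7 in CD133+ and 1397 in CD133-, so that it was 7.01-fold lower in RMA and 5.66-fold in MAS5. It ranked 12th lowest among the 13116 genes, rank 1 being the lowest difference. Its second probe set was under the floor in both populations and had a difference of -0.18 in RMA and -2.37 in MAS5, so the size rests on a single probe set.

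GPX1, GPX3 and GPX4 were above 0 in both processings, whereas GPX8, a family member of the wider list, differed by -0.71 in RMA and -0.67 in MAS5. GPX1, the general cytosolic form, had RMA levels of 11.07 in CD133+ against 11.02 in CD133-. GPX4, which reduces lipid peroxides within membranes and guards against ferroptosis, had 12.50 in CD133+ and 12.28 in CD133-. GPX3, the secreted plasma form, had 7.72 in CD133+ and 7.02 in CD133-, which is 1.63-fold higher in RMA and 1.41-fold in MAS5. Its second probe set had a difference of 0.56. GPX2 and GPX3 were thus on opposite sides, by -2.81 and 0.70 in RMA.

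**Figure D2:**
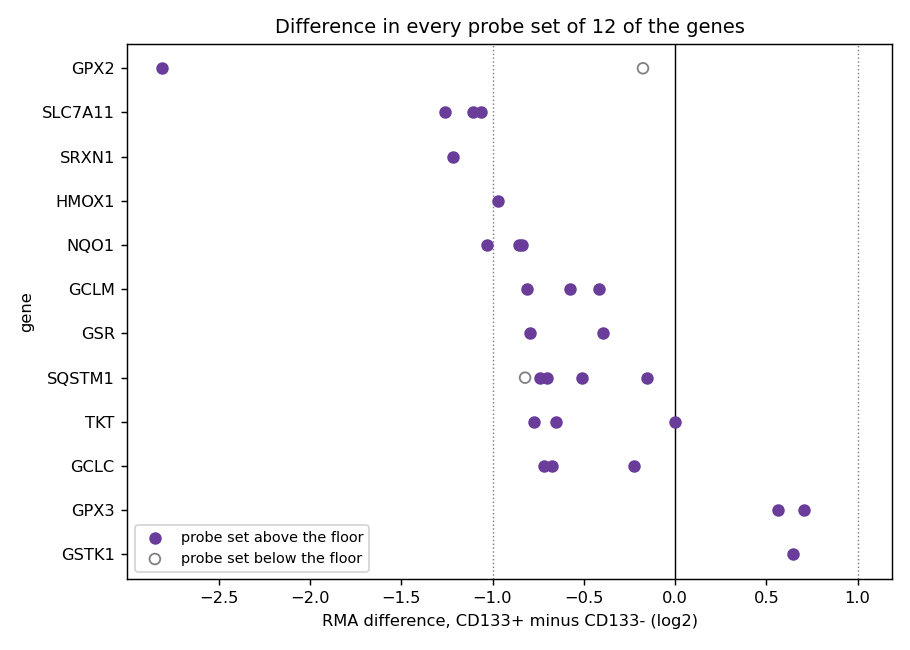
RMA difference (log2, CD133+ minus CD133-) in every probe set of the 9 genes at least 1.5-fold lower, of GCLC, and of GPX3 and GSTK1 at the other side. Filled points are probe sets above the floor, open points those below it, and dotted lines mark 2-fold. The 3 probe sets of SLC7A11 lie between -1.26 and -1.06, and GPX2 has a single filled point at -2.81.

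Of the thioredoxin system, only SRXN1 among the 9 genes measured was at least 1.5-fold lower, or 11.1%, beside 4.17% of all genes. SRXN1, sulfiredoxin, which repairs over-oxidised peroxiredoxins, had RMA levels of 8.52 in CD133+ against 9.74 in CD133-. Its MAS5 intensities were 1398 in CD133+ and 2971 in CD133-, which is 2.32-fold lower in RMA and 2.13-fold in MAS5. It has 1 probe set on the array. TXNRD1, the cytosolic thioredoxin reductase and a common NRF2 marker, differed by -0.30 in RMA and -0.14 in MAS5. TXNRD2, its mitochondrial counterpart, differed by 0.29 and 0.36.

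The peroxiredoxins, some of which are substrates of sulfiredoxin, remove most cellular hydrogen peroxide. They stayed within 0.24 of 0 in the probe sets read here. PRDX2 had the lowest difference among the 5 measured, at -0.24, and PRDX4, the form of the endoplasmic reticulum, the highest, at 0.16. Dimmer probe sets above the floor ran from -0.27 to 0.29 for PRDX2, and that of PRDX3 differed by -0.46. PRDX1 had RMA levels of 12.83 in CD133+ against 12.89 in CD133-, and PRDX6 had 12.59 in CD133+ and 12.66 in CD133-. PRDX3, the mitochondrial form, differed by -0.10 and TXN, thioredoxin itself, by 0.04. These transcripts are among the brightest of the array. Of the 248 genes with a mean RMA value of at least 12, 0% were 1.5-fold lower, and their central 95% was narrower, from -0.44 to 0.57. The 8 genes of the system at this level, which also include FTL, SOD1, GPX4 and MGST1, ran from -0.11 to 0.22. A lack of difference among these 8 was therefore the rule at that level of signal. PRDX2 and PRDX3, at mean RMA values of 11.10 and 11.94, are not among them. Of the 1243 genes from 10 to 12, 4.26% were 1.5-fold lower, and their central 95% ran from -0.74 to 0.75.

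**Figure D3:**
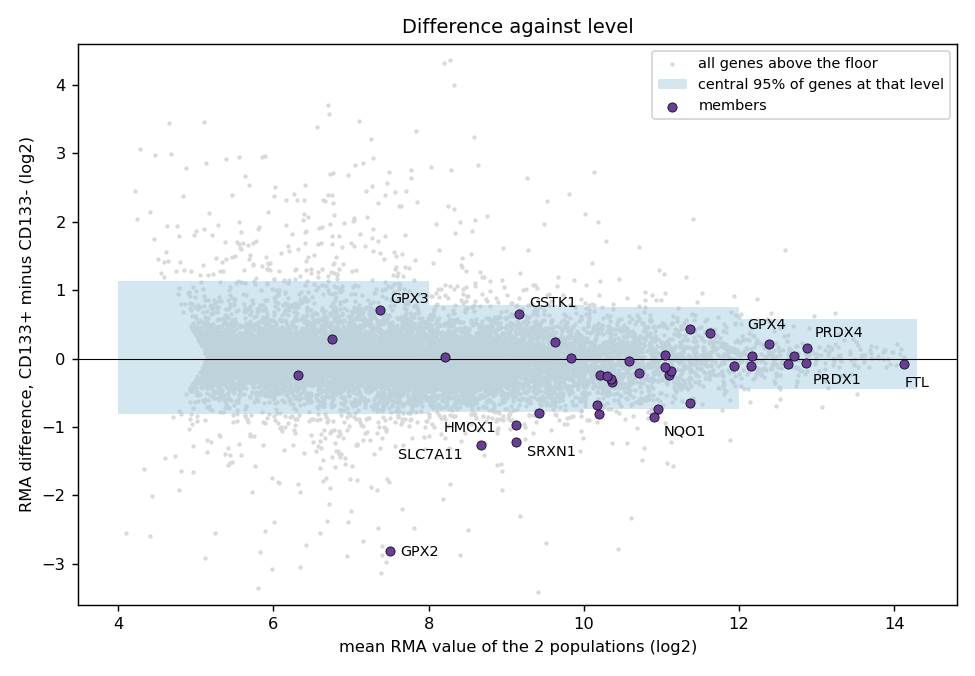
RMA difference (log2, CD133+ minus CD133-) against the mean RMA value of both populations, for all 13116 genes above the floor in grey and the 38 genes of the system in purple. Blue bands hold the central 95% of genes at that level. GPX2, SLC7A11, SRXN1, HMOX1, NQO1, GCLM, GSR and, barely, SQSTM1 lie under the band, while the genes at a mean of 12 or more lie within it.

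The MAS5 ratio also varied with the level. Over all genes at a mean RMA value of at least 12 the median MAS5 log2 ratio was 0.17 and the median RMA difference 0.03. The bright genes of the system shared this, with a median of 0.14 in MAS5 and -0.01 in RMA. Small differences of opposite sign in the processings, as for PRDX1 at -0.06 in RMA and 0.10 in MAS5, were of that size.

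Among the NADPH-supplying enzymes, all 4 were below 0 in RMA. Only TKT was at least 1.5-fold lower, or 25%, beside 4.17% of all genes. TKT, transketolase of the pentose phosphate pathway, had RMA levels of 11.04 in CD133+ against 11.69 in CD133-, or 1.57-fold lower in RMA and 1.54-fold in MAS5. Its second probe set differed by -0.78 and its dimmest by 0.00. TALDO1, transaldolase of the same pathway, differed by -0.21, ME1, cytosolic malic enzyme, by -0.24, and PGD, phosphogluconate dehydrogenase, by -0.19. The MAS5 log2 ratio of PGD was 0.23, on the other side of 0.

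NQO1 and HMOX1, targets often used to read NRF2 activity, were both lower in CD133+. NQO1, which reduces quinones, had RMA levels of 10.48 in CD133+ against 11.34 in CD133-. Its MAS5 intensities were 6407 in CD133+ and 10794 in CD133-, which is 1.81-fold lower in RMA and 1.68-fold in MAS5. Its 3 probe sets differed by -1.03 to -0.84. All 3 are of the kind that can match several transcripts, so NQO1 had no value without that kind of probe set.

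HMOX1, haem oxygenase, which breaks haem down to biliverdin, carbon monoxide and iron, had RMA levels of 8.64 in CD133+ against 9.61 in CD133-. It was 1.96-fold lower in RMA and 2.06-fold in MAS5, just short of the 2-fold limit in RMA. FTL, the ferritin light chain that stores the released iron, had 14.09 in CD133+ and 14.17 in CD133-, close to the top of the scale. OSGIN1, an oxidative-stress-induced growth inhibitor, had RMA levels of 6.19 in CD133+ against 6.43 in CD133-. Its MAS5 intensities were 48.6 in CD133+ and 179.5 in CD133-, so that the processings gave 1.18-fold and 3.69-fold lower, and its size is not settled.

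**Figure D4:**
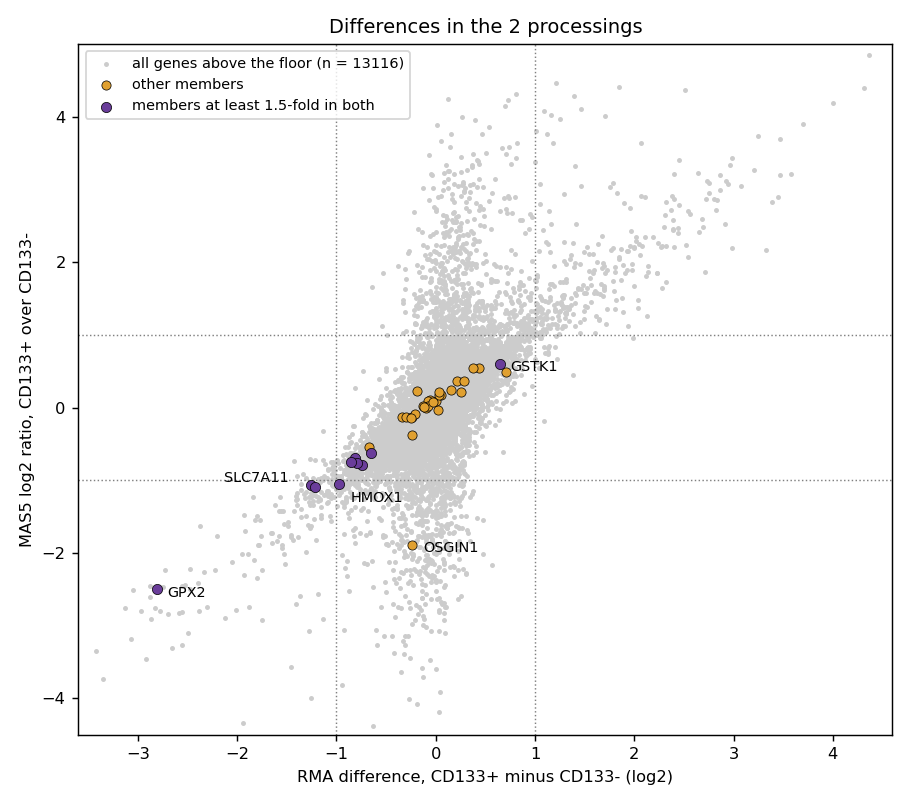
MAS5 log2 ratio against RMA difference, both CD133+ against CD133-, for all genes above the floor in grey, of which 9 lie outside the plotted range. Purple points are the 10 genes of the system at least 1.5-fold apart in both processings, orange points the others, and dotted lines mark 2-fold. GPX2 lies far to the lower left at -2.81 and -2.50, and OSGIN1 is low in MAS5 alone.

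The enzymes of superoxide and hydrogen peroxide removal outside the thiol systems showed little. SOD1, the copper-zinc superoxide dismutase, had RMA levels of 12.73 in CD133+ against 12.69 in CD133-. CAT, catalase, had 10.18 in CD133+ and 10.43 in CD133-, and its second probe set above the floor differed by -0.69.

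The glutathione transferases, which attach glutathione to electrophiles, were near or above 0 in the system and went both ways in the wider list. GSTK1, the kappa-class enzyme of mitochondria and peroxisomes, had RMA levels of 9.48 in CD133+ against 8.84 in CD133-, which is 1.56-fold higher in RMA and 1.51-fold in MAS5. GSTO1, of the omega class, differed by 0.44 and 0.43 in its 2 probe sets, and MGST3 and MGST2, membrane-bound forms, by 0.37 and 0.25. GSTA4, GSTM3 and MGST1 differed by -0.03, -0.13 and -0.11 in RMA and by 0.07, 0.02 and 0.01 in MAS5. Of the 7 transferases of the system above the floor, 0 were below 0 in both processings and 4 above, or 57.1%. The shares of all genes were 39.1% and 38.8%. GSTA1, the abundant alpha-class enzyme of mature hepatocytes, was under the floor in both populations, at 4.67 in CD133+ and 4.52 in CD133-. Of the mu-class enzymes of the wider list, GSTM4, GSTM1 and GSTM2 were on the CD133- side, by -0.58, -0.38 and -0.23 in RMA and -0.73, -0.23 and -0.03 in MAS5. The other transferases of that list above the floor, GSTP1, GSTZ1 and GSTO2, were on the CD133+ side. They differed by 0.66, 0.35 and 0.28 in RMA and by 0.32, 0.51 and 0.59 in MAS5. All of these were named after their values were seen. The mu-class enzymes are close relatives, and their probe sets can share signal.

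**Figure D5:**
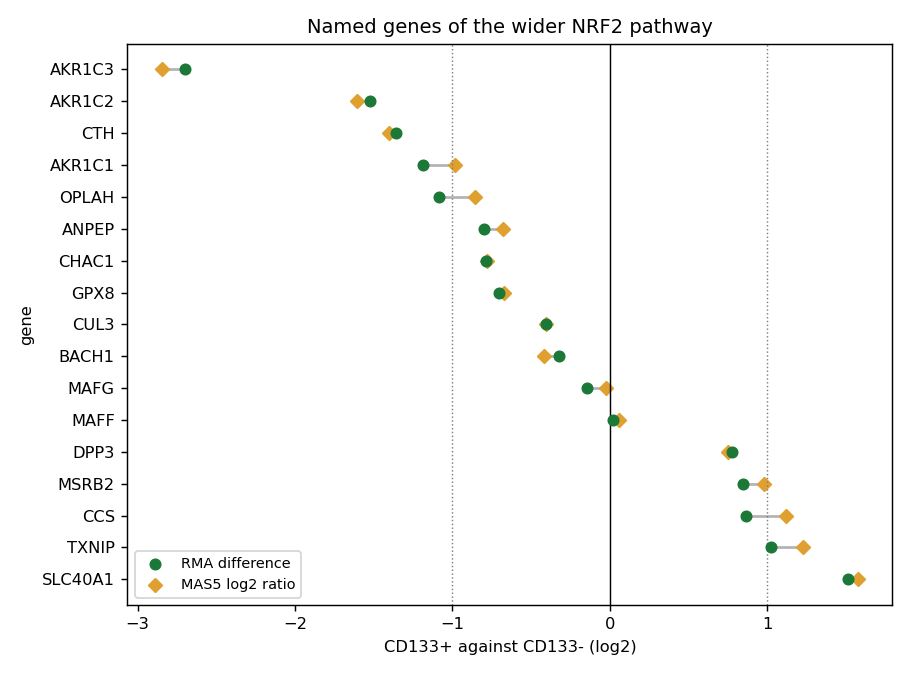
RMA difference (green circles) and MAS5 log2 ratio (orange diamonds), CD133+ against CD133-, of the 17 named genes of the wider NRF2 pathway, with dotted lines at 2-fold. AKR1C3 is lowest at -2.70 in RMA and SLC40A1 highest at 1.51, and MAFF and MAFG lie close to 0.

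A wider list of 89 pathway genes, chosen with earlier results of these data known, was read in the same way. Of these, 83 had a probe set of their own and 74 were above the floor. Because of that choice, the shares below describe the list and give no support of their own. In this list 3 genes were at least 2-fold lower, or 4.05%, beside 1.09% of all genes, and 2 at least 2-fold higher, beside 2.25% of all genes. At 1.5-fold, 8 were lower, or 10.8%, and 6 were higher, or 8.11%, beside 4.17% and 5.32% of all genes. The median difference was -0.14 in RMA and -0.11 in MAS5, and in both processings 41 genes were below 0, or 55.4%, and 22 above, or 29.7%, beside 39.1% and 38.8% of all genes. The wider pathway thus went both ways.

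The 8 genes at least 1.5-fold lower were 3 aldo-keto reductases, CTH, OPLAH, CHAC1, ANPEP and GPX8. AKR1C3, an aldo-keto reductase and NRF2 target, was 6.49-fold lower, with RMA levels of 8.17 in CD133+ against 10.86 in CD133-. AKR1C2 and AKR1C1 were 2.88-fold and 2.27-fold lower in RMA, but these reductases are close in sequence and their probe sets can share signal. CTH, cystathionine gamma-lyase, which makes cysteine by transsulfuration, was 2.56-fold lower, with both its probe sets between -1.44 and -1.36. OPLAH and CHAC1, which act in the breakdown of glutathione, differed by -1.09 and -0.78. ANPEP, an aminopeptidase that cleaves the glutathione fragment cysteinylglycine, and GPX8, the member of the glutathione peroxidase family in the endoplasmic reticulum, differed by -0.80 and -0.71.

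Of the 6 genes at least 1.5-fold higher, SLC40A1, ferroportin, the exporter of iron from cells, was 2.85-fold higher, with RMA levels of 7.27 in CD133+ against 5.76 in CD133-. TXNIP, which binds and inhibits thioredoxin, was 2.03-fold higher in RMA and 2.34-fold in MAS5, although its probe sets ranged from 0.51 to 1.02. CCS, the copper chaperone of SOD1, MSRB2, a mitochondrial methionine sulfoxide reductase, and DPP3, a peptidase that binds KEAP1, differed by 0.87, 0.85 and 0.78. AKR7A3, an aldo-keto reductase like those above but on the other side, differed by 0.62 in RMA and 0.64 in MAS5 and was named after its values were seen. CCS thus stood above 0 while SOD1, its client, differed by 0.04.

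Of the 4 partners and repressors of NRF2 above the floor, 3 were below 0 in both processings, or 75%, and 1 above, or 25%. The shares of all genes were 39.1% and 38.8%. CUL3, the ligase scaffold that works with KEAP1, differed by -0.40, but its second probe set above the floor by 0.08, and with the median over its probe sets it stood at 0.072. BACH1, a repressor that competes for the same DNA element, differed by -0.32 in RMA and -0.42 in MAS5. MAFG and MAFF, small MAF partners, differed by -0.15 and 0.02, and MAFK was not analysed here. None of the 4 reached 1.5-fold, beside 4.17% of all genes for the lower direction and 5.32% for the higher one.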

How the data were processed

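The labels name 1 CD133+ and 1 CD133- population of PLC8024, each deposited as MAS5 and as RMA. The MAS5 columns are linear intensity values and the RMA columns are log2 values as deposited by the authors, made with GCOS, MAS5 and RMA per the submitters' processing notes, with versions not given in the sources used here. MAS5 trimmed means were 499.9 in both columns. Whether both processings come from the same arrays is not given either. Of 54675 probe sets, 41097 had 1 gene in GEO's platform annotation, 1801 several and 11777 none; 41043 received a current symbol from RefSeq (GRCh38.p14). Differences are RMA CD133+ minus CD133- and the log2 of the MAS5 ratio, computed with pandas 2.3.3 and no pseudocount, and limits of 2-fold and 1.5-fold had to be met in both. With 1 array value per group there is no test, and the number of arrays limits the precision. The counting rule was tested on simulated data. All list members are named, with, from the wider list, each gene at 2-fold and the 8 next largest differences, and the partners and repressors MAFF, MAFG, MAFK, BACH1 and CUL3. Members, lists, limits and alternatives were chosen with earlier results of these data known. Promoters came from RefSeq. The closing section gives the effect of other processing choices.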

Additional observations from a re-analysis of the deposited data

How the results depend on the processing

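GPX2, SLC7A11 and SRXN1 were at least 2-fold lower under each of the 10 alternatives tried, and no gene of the system was at least 2-fold higher in any. Part of this was fixed in advance. RMA alone and MAS5 alone ask less than the main rule, which needs both, and could not drop a gene. SRXN1 has 1 probe set, so another choice of probe set could not change its value. With MAS5 alone 5 genes were lower, HMOX1 and OSGIN1 being added, against 5.60% of all genes. The median of the system was 0.0044 with MAS5 alone and 0.0044 with a MAS5 pseudocount of 50. The count at least 1.5-fold lower ranged from 6 to 10. It was 6 of 31 genes without the _x_at and _s_at probe sets, beside 3.93% of all genes. There SQSTM1 and TKT fell short, and NQO1 had no probe set left. It was 10 with MAS5 alone, beside 13% of all genes, and 10 with RMA alone, beside 5.22%. With the median over probe sets it was 7, beside 3.35% of all genes. The count at least 1.5-fold higher was 2 in RMA alone and 0 with the pseudocount. Of the wider list, 5 genes were at least 2-fold lower in RMA alone, beside 1.31% of all genes. The number at least 2-fold higher was 4 in MAS5 alone, 0 with the median over probe sets and 1 without the _x_at and _s_at probe sets. The share of all genes in the higher direction was not computed for these alternatives, so the higher counts cannot be set beside it. ANPEP had a difference of 0.037 with the median over probe sets. For single genes 8 further values moved by more than the probe set spread, and the cause was not tested. No paired analysis was possible because each population has 1 value per processing. No replicate could be left out, for the same reason, and detection calls were not used here.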

Other observations

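Selenoproteins, which include several glutathione peroxidases and the thioredoxin reductases, were grouped after their values were seen. They were taken from the lists read here and are not the whole family. Of 11 measured, GPX2 alone was at least 1.5-fold lower in CD133+, or 9.09%, beside 4.17% of all genes. None was at least 1.5-fold higher in both processings, beside 5.32% of all genes. With so few genes, these counts do not set the group apart from other genes. The other 10 ran from -0.30 for TXNRD1 to 0.70 for GPX3, with a median of -0.01. SELENOP, the plasma selenium carrier made by liver, had RMA levels of 9.21 in CD133+ against 8.84 in CD133-. SEPHS2, which makes the selenium donor for selenocysteine, differed by -0.30, and SELENOS, SELENOW and MSRB1 by -0.08, -0.09 and -0.11.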
